A study of Homo sapiens with 8 samples.

Results

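The genes described here encode 10 chaperones and proteases that maintain mitochondrial proteins: HSPD1, HSPE1, HSPA9, TRAP1, LONP1, CLPP, CLPX, HTRA2, AFG3L2 and YME1L1. They were listed by function, as genes tied to the mitochondrial unfolded protein response, and each was matched by its symbol to 1 Ensembl gene identifier among the 58051 in the count files. Of the 10 genes, 9 had a BaseMean above 5, the mean of size-factor-normalized counts over all samples that was set for testing, and CLPX did not. Most mitochondrial proteins are made in the cytosol and imported unfolded, so that chaperones of the matrix have to fold them and proteases have to remove what does not fold or assemble. When misfolded proteins accumulate in the organelle, cells can raise transcription of nuclear genes for these chaperones and proteases, a response that in mammalian cells involves the transcription factors ATF4, ATF5 and DDIT3. Complex II (succinate dehydrogenase) is one of the assemblies this system serves, because its subunits have to be imported and joined, and SDHA is left without its usual partner when SDHB is missing.

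RNA was measured in the triple-negative breast cancer line MDA-MB-231 (MDA231), in 2 samples of unmodified parental cells, 3 samples labelled SDHB knockout and 3 labelled SDHB knockout SDHA knockdown, called SDHA knockdown cells from here on although they lack SDHB too. SDHB knockout cells were made with a TALEN against the first exon of SDHB and hygromycin selection, and SDHA knockdown cells were the same cells carrying an SDHA shRNA plasmid selected with puromycin. All cells were collected untreated in full medium at 70% confluency, and the sources used here do not give whether the SDHB knockout cells were 1 clone, nor whether those sequenced carried an empty vector. Biological replicates are numbered in the labels, with no word on separate derivations, so p-values measure the spread between these samples, and differences between sublines, selection or plasmids cannot be told apart from the loss of SDHB or SDHA.

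Libraries were made with a kit that primes from the poly(A) tail (QuantSeq 3′ FWD), so that a read comes from the end of a transcript. Between 773042 and 1427141 reads per sample were counted on genes. By these totals alone, without TMM normalization, 3 counts of a gene corresponded to 2.1 to 3.88 CPM (counts scaled to library size). Every other CPM given here is a count scaled to a common library size of tested genes by TMM normalization. On that scale, 3 SDHB counts in parental replicate 2 were 3.98 CPM. SDHA checked the knockdown: it had 7, 17 and 16 counts in SDHA knockdown cells, against 108, 121 and 140 in SDHB knockout and 64 and 69 in parental cells. SDHB had 0 to 4 counts in every sample, parental cells included, too few to check the knockout. The mesenchymal genes VIM, CD44, AXL and CAV1 of this line had at least 44 counts in each sample. ESR1 and PGR had 0, and the epithelial genes EPCAM and CDH1 had 0 to 2. The receptor gene ERBB2 was low but present, with 15 to 25 counts (11.2 to 30.1 CPM). In RNA from whole cultures, a change in some of the cells and a smaller change in all of them cannot be told apart.

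HSPD1, the chaperonin that encloses unfolded proteins in the matrix, and HSPE1, the co-chaperonin that forms its lid, are neighbours transcribed away from each other from a shared promoter region. In GENCODE annotation on GRCh38, HSPD1 lies at chr2:197486584-197516737 on the minus strand and HSPE1 at chr2:197500140-197503449 on the plus strand. RefSeq (GRCh38.p14) places their main start sites at 197500274 and 197500379, with 104 bases between them. Both promoter windows, from 250 bases before to 50 after a start, therefore hold the same NRF1 motif (GCGCA, any base and GCGC, on either strand) and the same E-box (CACGTG, its own reverse complement), shown here because they precede both starts. A RefSeq start of HSPD1 further downstream, at 197499840, has a heat shock element (TTC, GAA and TTC with 2 free bases between them, on either strand) in its window, in 2 overlapping matches. In the plus strand for the first 2 and the minus strand for the last, with the motif in capitals, the sites read:
NRF1 motif, chr2:197500324-197500349, plus strand: gggcgagcGCGCCTGCGCgctgggtg
E-box, chr2:197500349-197500370, plus strand: gattttttCACGTGtcgccagg
Heat shock element of HSPD1, chr2:197500063-197500090, minus strand: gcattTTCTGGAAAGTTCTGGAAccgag
The NRF1 motif and the E-box lie between the main starts, within an untranslated first exon of an alternative HSPE1 transcript in GENCODE, and the heat shock element lies downstream of the main HSPD1 start, within untranslated first exons of alternative HSPD1 transcripts.

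RefSeq windows were available for 8 of the 10 genes, as 11 windows. The heat shock element was the rarest of the 5 motifs searched. It was in 0.49% of 35116 windows and in those of 28 of 6081 tested genes (0.46%), HSPD1 among them and no other gene of the group. The NRF1 motif stood in windows of HSPD1, HSPE1, LONP1 and CLPX (15% of tested genes), and the E-box in those of HSPD1, HSPE1, HSPA9 and LONP1, where it occurred 2 times (13.6% of tested genes). The CCAAT box (CCAAT) was found for CLPX alone, against 44% of tested genes. No window of these genes held TGATGNAA, the composite element through which C/EBP and ATF proteins bind together, which 2.38% of tested genes had. A match is a run of letters and not a measured binding site, and the lack of one applies only to these windows.

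None of the 9 tested genes passed the threshold in any of the 3 comparisons, by the quasi-likelihood test of edgeR with Benjamini-Hochberg adjusted p below 0.1 over all 7550 tested genes. In SDHB knockout against parental cells the test called 5.54% of all tested genes, with 1.51% in SDHA knockdown against SDHB knockout cells, and 0.914% in SDHA knockdown against parental cells, so that 0 of 9 was close to the share of the whole table. DESeq2 also called 0 of them in each comparison. At an unadjusted p below 0.05 there were 2 genes in SDHB knockout against parental cells (17.5% of all tested genes), 1 in SDHA knockdown against SDHB knockout cells (12.1%) and 2 in SDHA knockdown against parental cells (12.3%). The genes did not move as a block. In SDHB knockout cells 3 were higher and 6 lower than in parental cells, with a median log2 fold change of -0.35 against -0.001 over all tested genes, and single values ran from -0.93 for HSPE1 to 0.61 for HTRA2. The median was 0.18 in SDHA knockdown against SDHB knockout cells (all genes 0.01) and -0.06 against parental cells (all genes 0.02). These comparisons share samples, so their values are not independent of each other.

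**Figure D1:**
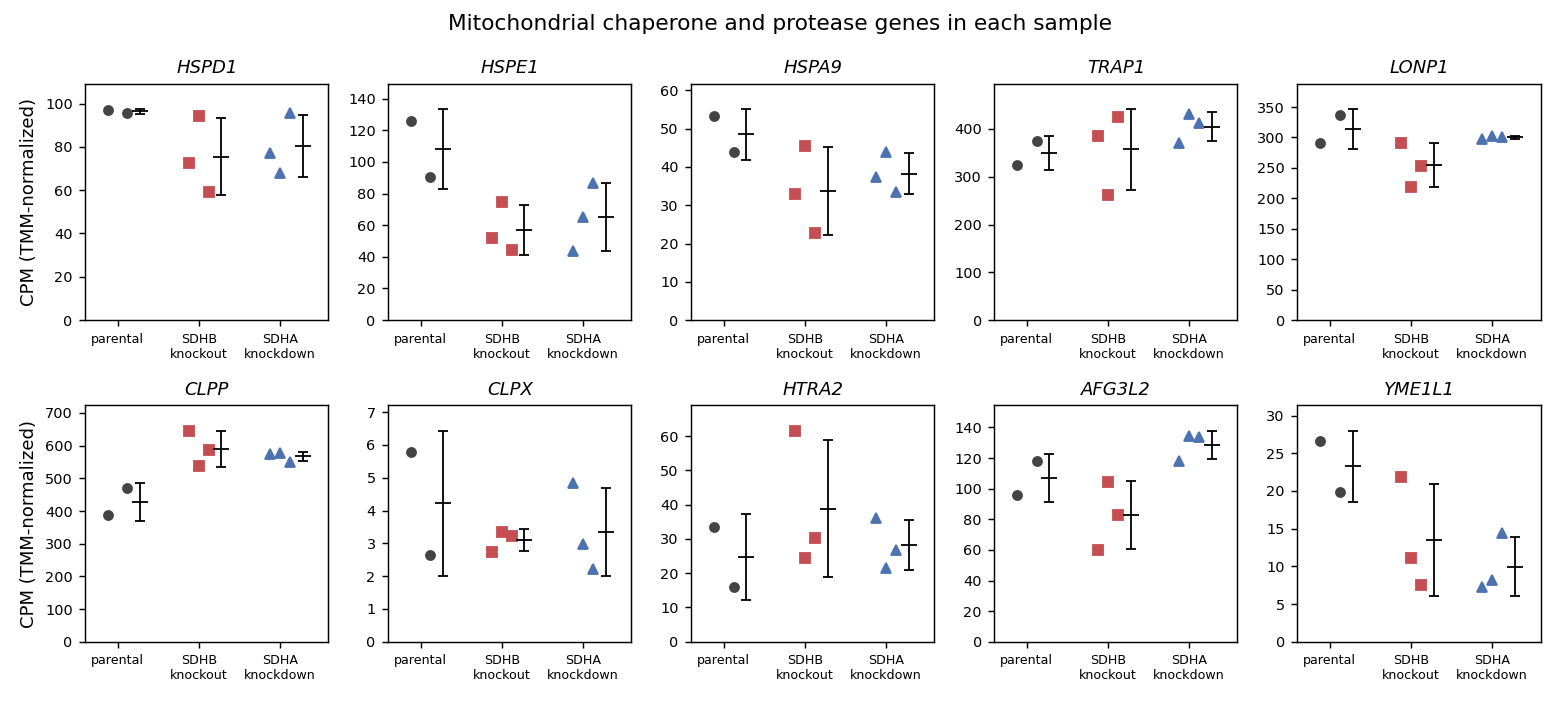
Level of each of the 10 genes in every sample, as TMM-normalized CPM on a linear axis from 0 (dots, parental, n = 2; squares, SDHB knockout, n = 3; triangles, SDHA knockdown, n = 3), with the group mean ± SD as a bar beside the points. HSPE1 lies lower and CLPP higher in all 6 samples of the modified cells than in the 2 parental samples, whereas most other genes overlap. The share of all tested genes that separate in this way was not counted. CLPX is at or near 3 counts and was not tested.

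HSPE1 came nearest to the threshold. It had 126 and 90.3 CPM in parental cells, 52, 74.5 and 44.2 in SDHB knockout cells, and 43.4, 64.9 and 86.9 in SDHA knockdown cells, from 36 to 109 counts per sample. Every sample of the modified cells was below both parental samples, while SDHB knockout and SDHA knockdown cells overlapped. The log2 fold change of SDHB knockout against parental cells was -0.93 ± 0.31 (SE), with a 95% interval of -1.56 to -0.29, a p of 0.0061 and an adjusted p of 0.104 in the edgeR fit. In SDHA knockdown against parental cells it was -0.73 ± 0.30 (edgeR, adjusted p = 0.311), and against SDHB knockout cells 0.20 ± 0.28 (adjusted p = 0.823). The first difference lay at the edge of the call. Over the alternatives its edgeR or DESeq2 adjusted p ran from 0.036 to 0.665, and HSPE1 passed 0.1 in 6 of the 17 settings, the main one included. It passed when only the 2 groups were fitted (edgeR, adjusted p = 0.0364), without a filter on low counts (0.0825), and without SDHB knockout replicate 2 (0.0708) or any 1 of the SDHA knockdown samples (0.0409 to 0.094). It was at 0.665 without parental replicate 1, the sample with the most HSPE1, where the log2 fold change was -0.66. In that setting, with 1 parental sample, edgeR called 0 genes of the whole table in this comparison (665 at an unadjusted p below 0.05), so that a lost call there does not single out a gene.

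HSPD1 had 97.2 and 95.6 CPM in parental cells, 72.5, 94.5 and 59.4 in SDHB knockout cells, and 77.2, 67.9 and 95.8 in SDHA knockdown cells (53 to 91 counts). The parental samples were almost equal and above all SDHB knockout samples, but SDHB knockout replicate 2 came close to them. The log2 fold change of SDHB knockout against parental cells was -0.35 ± 0.27 (95% interval -0.91 to 0.20; edgeR, adjusted p = 0.53), and 0.08 ± 0.24 for SDHA knockdown against SDHB knockout cells (adjusted p = 0.921). Because HSPE1 and HSPD1 leave the same promoter region, their counts were also set against each other within a sample. HSPE1 took 56.5% and 48.6% of the summed counts of the pair in parental cells, 41.8%, 44.1% and 42.7% in SDHB knockout cells, and 36.0%, 48.9% and 47.6% in SDHA knockdown cells. The share was lower in all SDHB knockout samples than in both parental samples, but by less than its counting error for parental replicate 2, whose 95% Wilson interval was 40.4% to 56.8%. Such intervals cover counting error only. They treat each read as an independent molecule, which reads of this kit without molecular identifiers are not, so they may be too narrow.

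Reads of both genes can also match elsewhere in the genome. Sequences at least 90% identical over 100 or more bases to the transcript end of HSPE1 occurred at 11 other places (up to 98.2% identity) and to that of HSPD1 at 9 (up to 98.3%), against 0 for each of the other 8 genes. Reads that map to several places were not counted on genes by the authors, and they made up 14.5% to 16.1% of reads in SDHB knockout cells, 10.2% to 10.9% in parental cells and 9.72% to 12.3% in SDHA knockdown cells. The transcript ends of both genes are also AT-rich, with a GC content of 32.7% for HSPE1 and 33.3% for HSPD1. The fifth of tested genes with the lowest GC content (up to 33.7%) had a median log2 fold change of -0.15 in SDHB knockout against parental cells. After a correction for this trend, chosen after the data had been seen, HSPE1 was at -0.78 (edgeR, adjusted p = 0.143) and HSPD1 at -0.22 (0.693). The part of read mapping in the HSPE1 difference was not tested.

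**Figure D2:**
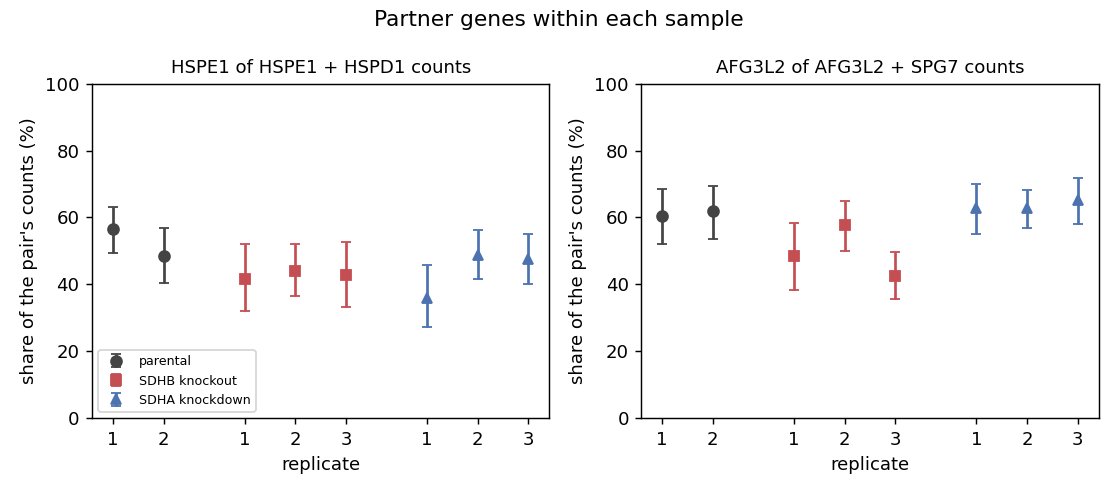
Share of the first gene in the summed raw counts of 2 partner genes, in percent, for each sample (points) with 95% Wilson intervals of counting error (bars). The HSPE1 share of SDHB knockout samples (41.8% to 44.1%) lies below that of the parental samples with overlapping intervals, and the AFG3L2 share is lower in the 3 SDHB knockout samples (42.5% to 57.7%) than in the 5 others (60.6% to 65.2%).

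HSPA9 and TRAP1, the mitochondrial members of the HSP70 and HSP90 families, differed between groups by no more than the spread between samples. HSPA9 (chr5:138553756-138575675, minus strand) pulls proteins through the inner membrane and folds them. It had 53.2 and 43.8 CPM in parental cells, 32.8, 45.6 and 22.7 in SDHB knockout cells, and 37.4, 44 and 33.4 in SDHA knockdown cells (21 to 59 counts). All 3 groups overlapped, with parental cells highest on average, and the log2 fold change of SDHB knockout against parental cells was -0.53 ± 0.34 (95% interval -1.24 to 0.18; edgeR, adjusted p = 0.449). TRAP1 (chr16:3651639-3717553, minus strand) is a chaperone of the matrix that is known to bind succinate dehydrogenase and lower its activity. TRAP1 had 324 and 374 CPM in parental cells, 386, 262 and 424 in SDHB knockout cells, and 372, 431 and 412 in SDHA knockdown cells. The spread within SDHB knockout cells alone, from 262 to 424 CPM, covered parental cells fully. On the log2 scale TRAP1 differed by 0.03 ± 0.22 in SDHB knockout against parental cells, and its 95% interval of -0.43 to 0.50 bounds the difference in either direction (edgeR, adjusted p = 0.958), with the sign turning to -0.08 after the correction for GC content. It was 0.18 ± 0.20 (adjusted p = 0.766) in SDHA knockdown against SDHB knockout cells. The last 300 bases of the TRAP1 transcript lie opposite exons of DNASE1, and the sources used here do not give whether counting used strand.

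Among the proteases of the matrix, CLPP was higher in all samples of the modified cells and LONP1 was not. LONP1 (chr19:5691834-5720572, minus strand), the ATP-dependent protease that removes damaged matrix proteins, had 290 and 337 CPM in parental cells, 291, 219 and 254 in SDHB knockout cells, and 297, 302 and 301 in SDHA knockdown cells. The groups of SDHB knockout and parental cells met at 290 and 291 CPM, and the 3 SDHA knockdown samples lay close together above every SDHB knockout sample. The log2 fold changes were -0.30 ± 0.21 in SDHB knockout against parental cells (edgeR, adjusted p = 0.487) and 0.24 ± 0.19 in SDHA knockdown against SDHB knockout cells (adjusted p = 0.652). The last 300 bases of LONP1 overlap RPL36 on the opposite strand over 42 bases.

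CLPP (chr19:6361531-6370242, plus strand), the chamber of the ClpXP protease in which proteins are cut, had 386 and 470 CPM in parental cells, 646, 538 and 586 in SDHB knockout cells, and 573, 578 and 551 in SDHA knockdown cells (334 to 774 counts). The lowest sample of the modified cells, at 538 CPM, was above the higher parental sample, and both modified groups overlapped each other. Between SDHB knockout and parental cells the log2 fold change was 0.46 ± 0.20 (95% interval 0.04 to 0.88), with an unadjusted p of 0.033 and an edgeR adjusted p of 0.234. It was 0.41 ± 0.20 for SDHA knockdown against parental cells (edgeR, adjusted p = 0.427) and -0.06 ± 0.18 against SDHB knockout cells (0.928). CLPP did not pass the threshold under any of the alternatives, where its adjusted p in SDHB knockout against parental cells ran from 0.115 to 0.792. CLPX (chr15:65148219-65185342, minus strand), the ATPase that unfolds proteins and feeds them to CLPP, was counted too rarely for a comparison, with 5 and 2 counts in parental samples, 2, 3 and 3 in SDHB knockout samples, and 4, 4 and 2 in SDHA knockdown samples. A difference in CLPX was therefore not detectable at this depth.

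HTRA2 (chr2:74529596-74533350, plus strand), a serine protease of the intermembrane space that promotes apoptosis once released, varied widely between replicates. It had 33.6 and 15.9 CPM in parental cells, 61.6, 24.5 and 30.2 in SDHB knockout cells, and 36.2, 21.6 and 26.7 in SDHA knockdown cells (12 to 45 counts). The 3 groups overlapped, and SDHB knockout replicate 1 stood above all other samples. HTRA2 in SDHB knockout against parental cells had a log2 fold change of 0.61 ± 0.44 (95% interval -0.31 to 1.52; edgeR, adjusted p = 0.509). HTRA2 lies opposite exons of LOXL3 over its last 300 bases, so that reads of the 2 genes may not be separated if strand was not used.

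The membrane-bound proteases of the inner membrane are AFG3L2, whose active site faces the matrix, and YME1L1, which faces the intermembrane space. AFG3L2 (chr18:12328944-12377227, minus strand) had 96.0 and 118 CPM in parental cells, 60.2, 104.5 and 83.1 in SDHB knockout cells, and 118, 134 and 134 in SDHA knockdown cells (44 to 180 counts). SDHA knockdown cells were the highest group, with every sample above every SDHB knockout sample, whereas SDHB knockout replicate 2 lay between the 2 parental samples. The log2 fold change of SDHA knockdown against SDHB knockout cells was 0.63 ± 0.23 (95% interval 0.16 to 1.11), with an unadjusted p of 0.012 and an edgeR adjusted p of 0.253. It was -0.36 ± 0.26 in SDHB knockout against parental cells (edgeR, adjusted p = 0.502) and 0.27 ± 0.26 in SDHA knockdown against parental cells (0.715). Over the alternatives the adjusted p of the first difference stayed between 0.167 and 0.551. Along its last 300 bases AFG3L2 overlaps TUBB6 on the opposite strand over 98 bases.

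AFG3L2 forms the m-AAA protease alone or together with SPG7, and the share of AFG3L2 in the counts of the pair was lower in SDHB knockout cells. It was 60.6% and 61.8% in parental cells, 48.4%, 57.7% and 42.5% in SDHB knockout cells, and 62.8%, 62.7% and 65.2% in SDHA knockdown cells. No SDHB knockout sample overlapped the other groups, and how often other gene pairs separate in this way was not counted. For single genes, SDHB knockout cells did not overlap parental cells in 37.9% of those tested, and SDHA knockdown cells in 17.4%. The 95% Wilson interval of SDHB knockout replicate 3 (35.6% to 49.8%) ended below those of all samples outside its group, whereas that of replicate 2 (49.99% to 64.99%) covered both parental values. SPG7 had 54 and 55 counts in parental cells and 47, 69 and 104 in SDHB knockout cells. In SDHA knockdown cells it had 58, 107 and 64. SDHB knockout replicate 3, with the lowest share, had 77 AFG3L2 counts, against 83 and 89 in parental samples. A lower share can therefore come from more SPG7 as well as from less AFG3L2. The share was not tested across samples.

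YME1L1 (chr10:27110111-27155266, minus strand) had 26.6 and 19.9 CPM in parental cells, 21.9, 11.1 and 7.55 in SDHB knockout cells, and 7.24, 8.21 and 14.5 in SDHA knockdown cells, from 6 to 23 counts. Every SDHA knockdown sample was below both parental samples, and the SDHB knockout samples spread over both other groups. The log2 fold change of SDHA knockdown against parental cells was -1.23 ± 0.51 (95% interval -2.30 to -0.16), the largest of the 9 genes in any comparison, with an unadjusted p of 0.026 and an edgeR adjusted p of 0.323. In SDHB knockout against parental cells it was -0.82 ± 0.51 (edgeR, adjusted p = 0.431). YME1L1 has the lowest GC content of the 10 transcript ends (30.7%), and after the correction for GC content its value in SDHA knockdown against parental cells was -1.08 (edgeR, adjusted p = 0.37).

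Complete separation of 2 groups was seen in 2 to 4 of the 9 genes, depending on the comparison. In SDHB knockout against parental cells, CLPP was higher in every sample and HSPE1 and HSPD1 were lower, 3 of 9 genes against 37.9% of all tested genes. AFG3L2 and LONP1 were higher in every sample of SDHA knockdown than of SDHB knockout cells, 2 of 9 against 17.4%. In SDHA knockdown against parental cells, CLPP and AFG3L2 were higher and HSPE1 and YME1L1 lower in every sample, 4 of 9 against 30.7%. The AFG3L2 groups there were separated by 118.3 against 118.1 CPM.

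**Figure D3:**
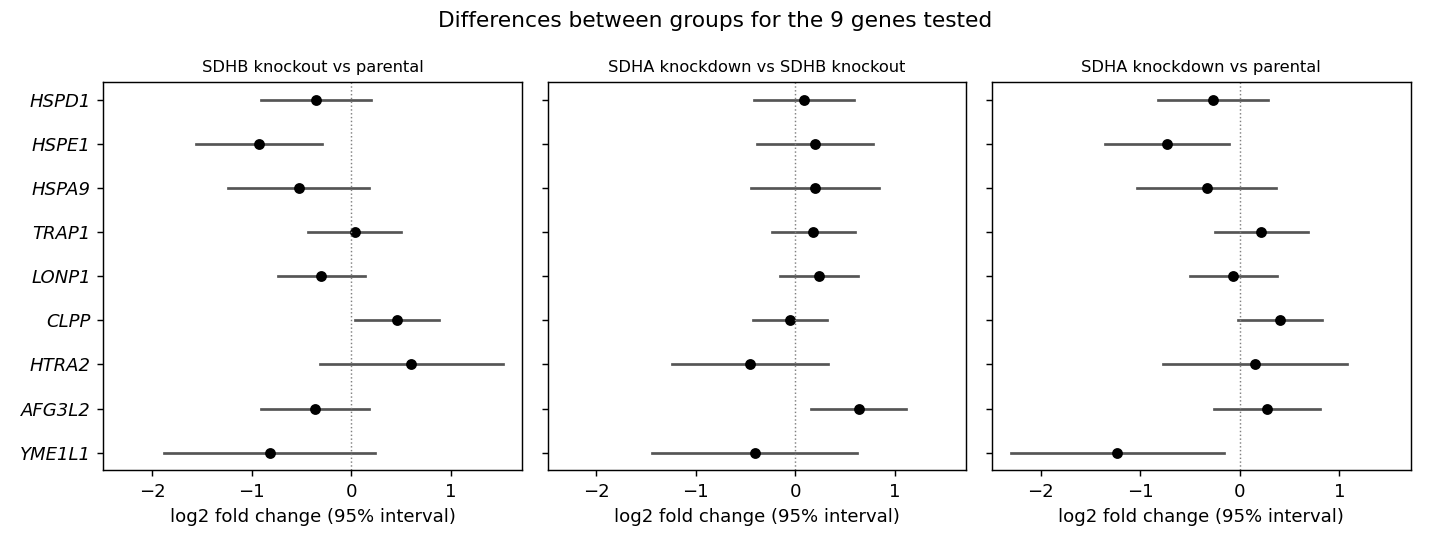
Log2 fold change (points) with 95% intervals (bars) of the 9 tested genes in each comparison, from the edgeR fit of all 8 samples, with the dotted line at 0. The intervals of HSPE1 and CLPP in the first panel, AFG3L2 in the second, and HSPE1 and YME1L1 in the third exclude 0 before adjustment, and none of these differences passed an adjusted p of 0.1.

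Genes that work with these chaperones and proteases were looked at by list. Lists of mitochondrial folding factors, proteases and protein import and of stress regulators, the last not all mitochondrial, held 64 genes. Of these, 52 were tested. In SDHB knockout against parental cells 2 were called higher (TIMM8B and ATF5) and 1 lower (HSF1), 5.77% against 5.54% of all genes. Of the folding factors, 0 of 10 tested were called by edgeR and 0 by DESeq2, and 3 had an unadjusted p below 0.05. GRPEL1, the exchange factor that frees HSPA9 of its nucleotide, was at 0.59 ± 0.24 (edgeR, adjusted p = 0.191), PHB2, a scaffold of the inner membrane, at 0.48 (0.225), and PPIF, a prolyl isomerase of the matrix, at -0.66 (0.179). Of the other proteases, 0 of 8 tested were called by edgeR and 0 by DESeq2, and 3 had an unadjusted p below 0.05. Among these 3, PITRM1, which degrades cleaved presequences, was at 0.61 (edgeR, adjusted p = 0.270) and PARL, a rhomboid protease, at 0.51 (0.268). PMPCA, a subunit of the processing peptidase, was not among them, at -0.61 (edgeR, adjusted p = 0.457, unadjusted p = 0.141). The lowest log2 fold change of the list was -1.34, for a gene below the 20 CPM set for naming.

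For protein import, 1 of 22 tested genes was called in SDHB knockout against parental cells (4.55%), close to the 5.54% of all tested genes. TIMM8B, a small carrier chaperone of the intermembrane space, rose from 114 and 86.3 CPM in parental cells to 171, 149 and 278 in SDHB knockout cells, with a log2 fold change of 0.99 ± 0.29 (edgeR, adjusted p = 0.0721). The groups did not overlap, as for 37.9% of all tested genes. The fold remained positive but the call was lost without SDHB knockout replicate 1 (log2 fold change 1.09, edgeR adjusted p = 0.139) or 3 (0.68, 0.293). These 2 fits called 77 and 148 genes over the whole table, against 418 in the main fit. The TIMM8B call was also lost without parental replicate 1 (log2 fold change 1.21) or 2 (0.80). With 1 parental sample far fewer genes were called over the whole table, so that a lost call there does not single out a gene. All of the last 300 bases of TIMM8B lie opposite exons of NKAPD1, with the same doubt about strand as for TRAP1. TIMM23, the import channel, was at 0.66, the receptor TOMM70 at -0.69 and TIMM17A, a partner of TIMM23, at -0.71, each with an edgeR adjusted p above 0.24.

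Of the 12 stress regulators, all tested, 1 was called higher and 1 lower in SDHB knockout than in parental cells (16.7%, against 5.54% of all tested genes). Another was called lower in SDHA knockdown than in SDHB knockout cells (8.33%, against 1.51%). ATF5, a transcription factor of the mitochondrial unfolded protein response, had 32.4 and 30.5 CPM in parental cells, 126, 67.8 and 75.5 in SDHB knockout cells, and 56.7, 64.2 and 56.8 in SDHA knockdown cells. The 3 groups did not overlap, with parental cells lowest and SDHB knockout cells highest. Single pairs of groups did not overlap in 17.4% to 37.9% of all tested genes, and the share for all 3 groups at once was not counted. ATF5 rose in SDHB knockout cells by 1.496 ± 0.324 on the log2 scale (edgeR, adjusted p = 0.0171). The call was lost without SDHB knockout replicate 1 (log2 fold change 1.183, edgeR adjusted p = 0.109), where 77 genes of the whole table were called, against 418 in the main fit. The ATF5 call was also lost without parental replicate 1 (log2 fold change 1.54) or 2 (1.46), fits with 1 parental sample in which a lost call does not single out a gene. ATF4, the main transcription factor of the integrated stress response, had 160 and 199 CPM in parental cells, 315, 236 and 326 in SDHB knockout cells, and 156, 188 and 164 in SDHA knockdown cells. ATF4 was at 0.70 ± 0.23 in SDHB knockout against parental cells (edgeR, adjusted p = 0.103; DESeq2, 0.0553) and fell by 0.78 on the log2 scale in SDHA knockdown against SDHB knockout cells (edgeR, adjusted p = 0.0750). That call was lost without 6 of the 8 samples in turn, with log2 fold changes from -0.78 to -0.71 and edgeR adjusted p from 0.133 to 0.297. Without SDHB knockout replicate 1 or 3, edgeR called 39 or 40 genes over the whole table in that comparison, against 114 in the main fit. HSF1, the regulator of the cytosolic heat shock response, fell from 606 and 766 CPM in parental cells to 410, 385 and 419 in SDHB knockout cells, by 0.76 on the log2 scale (edgeR, adjusted p = 0.0476). The HSF1 call was lost without SDHB knockout replicate 1 (log2 fold change -0.77, edgeR adjusted p = 0.131) or 3 (-0.77, 0.138), fits that called 77 and 148 genes of the whole table. The HSF1 call was also lost in the fits with 1 parental sample, without replicate 1 (log2 fold change -0.92) or 2 (-0.58). Of the last 300 bases of HSF1, 137 lie opposite exons of other genes, DGAT1 among them. NRF1, the factor named in the motif above, was at -0.47 (edgeR, adjusted p = 0.562), CEBPB at 0.19 (0.842) and the kinase EIF2AK1 at -0.16 (0.830), the last 2 with either sign over the alternatives. DDIT3 was tested and not called in any comparison, which does not show that it was unchanged. In SDHA knockdown against SDHB knockout cells the list ran from -1.51 to 0.40, so that the fall of ATF4 was not the largest. The gene at -1.51 was not called, and its values are not given here.

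**Figure D4:**
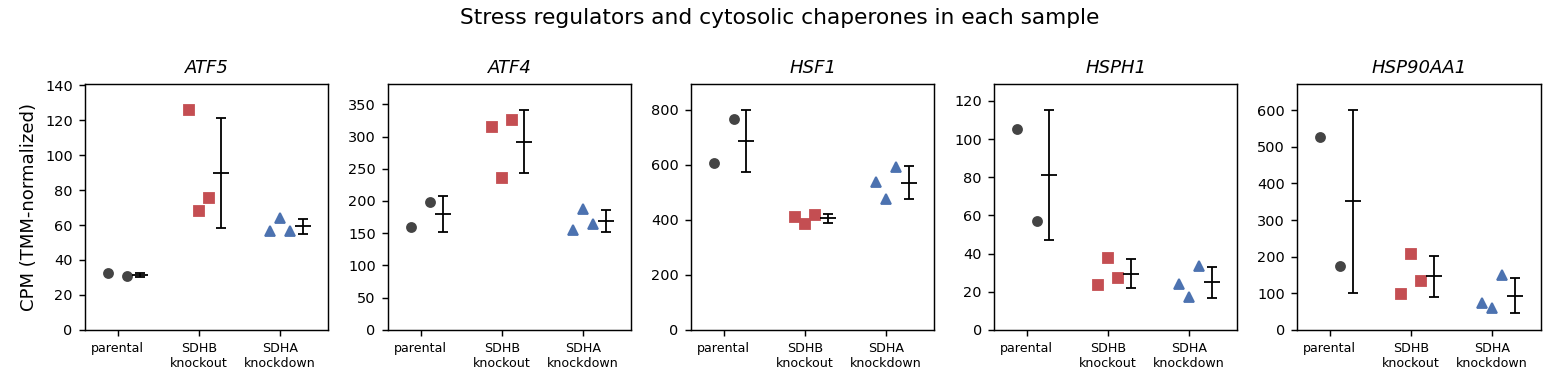
TMM-normalized CPM of ATF5, ATF4, HSF1, HSPH1 and HSP90AA1 in every sample (points) with group mean ± SD (bars), n = 2, 3 and 3, on linear axes from 0. ATF5 is separated between all 3 groups, from 30.5 and 32.4 CPM in parental cells to 67.8 CPM or more in SDHB knockout cells, and HSP90AA1 of parental replicate 1 (528 CPM) lies far above the other 7 samples.

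The last list held chaperones of the cytosol and the endoplasmic reticulum. Of 22 tested, 7 (31.8%) passed the threshold in SDHB knockout against parental cells, against 5.54% of all tested genes. Like the other lists, this one was chosen with earlier results of these data known. CALR, a lectin chaperone of the endoplasmic reticulum, rose by 0.90 on the log2 scale, HYOU1, an HSP70 relative there, by 0.87, and the co-chaperone STIP1 by 0.82 (edgeR, adjusted p from 0.0355 to 0.0964). HSPH1 and HSPA4, which exchange the nucleotide of cytosolic HSP70 proteins, fell by 1.46 and 0.98 on the same scale, HSP90AA1, the stress-inducible HSP90 of the cytosol, by 1.26, and HSP90B1, its counterpart in the endoplasmic reticulum, by 1.30 (edgeR, adjusted p from 0.0329 to 0.0926). HSPH1 was at 105 and 57.1 CPM in parental cells and 23.3, 37.8 and 27.0 in SDHB knockout cells, while HSP90AA1 was at 528 and 174 CPM in parental cells and 98.5, 208 and 133 in SDHB knockout cells. Falls of 3 genes were smaller without parental replicate 1, when HSP90AA1 was at -0.24 and HSP90B1 at -0.34 (edgeR, adjusted p = 0.911 and 0.875), and HSPH1 at -0.95 (0.580). The other 4 genes kept a similar size there, with CALR at 0.98, HYOU1 at 0.98, STIP1 at 0.78 and HSPA4 at -0.88, and none of the 7 passed the threshold in that setting, in which edgeR called 0 genes of the whole table, as given for HSPE1 (adjusted p of these 4 genes from 0.399 to 0.549). The same 4 were not called without parental replicate 2, with CALR at 0.81, HYOU1 at 0.765, STIP1 at 0.85 and HSPA4 at -1.07. That fit also had 1 parental sample and called far fewer genes over the whole table. With both parental samples kept, none of the 7 was called without SDHB knockout replicate 1 (edgeR, adjusted p from 0.109 to 0.286). Without SDHB knockout replicate 3, HSPH1, HSPA4, HSP90AA1, HSP90B1, STIP1 and HYOU1 were not called (edgeR, adjusted p from 0.117 to 0.319). These 2 fits called 77 and 148 genes over the whole table, against 418 in the main fit. DESeq2 called 6 genes of the list, CALR, HYOU1, STIP1, HSPA4, HSP90B1 and HSPB1, and not HSP90AA1 (adjusted p = 0.253), and gave no adjusted p for HSPH1. PDIA3 was at 0.72, HSPB1 at 0.58 and HSP90AB1 at 0.34, each with an edgeR adjusted p above 0.13. Of the 22, 2 were called in SDHA knockdown against parental cells (9.09%, against 0.914% of all tested genes). They were HSP90AA1 at -1.92 and HSPH1 at -1.73 (edgeR, adjusted p = 0.0422 and 0.0441). Neither was called with only the 2 groups fitted (edgeR, adjusted p = 0.142 for both) or without SDHA knockdown replicate 1 (0.173 and 0.164). These 2 fits called 7 and 8 genes over the whole table, against 69 in the main fit. Without parental replicate 1, a fit with 1 parental sample, HSP90AA1 and HSPH1 were at -0.90 and -1.215 and not called. DESeq2 called CALR and HSPH1 in this comparison, and not HSP90AA1 (adjusted p = 0.148). In SDHA knockdown against SDHB knockout cells none of the 22 was called by edgeR or DESeq2, with 2 at an unadjusted p below 0.05. The last 300 bases of HYOU1, and 198 of those of CALR, lie opposite exons of other genes. Transcript ends of these genes were not searched for copies elsewhere in the genome, and reads shared with pseudogenes would make their counts uncertain.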

How the data were processed

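The authors trimmed reads with Trimmomatic, discarded those of ribosomal and mitochondrial RNA, mapped the others to GRCh38 (an Ensembl annotation) with STAR 2.5.2b and deposited raw counts per gene. They also deposited a normalized signal, the raw counts over each sample's size factor, in which replicates 1 and 3 of SDHB knockout cells hold each other's values. The raw counts and their numbering were used. Whether counting used strand is not given in the sources used here.

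Counts of genes with a BaseMean above 5 (7550 of 58051) entered a quasi-likelihood fit by edgeR 4.0.16 (R 4.3.3, TMM normalization), with all 8 samples in 1 fit (biological coefficient of variation 21.5%, 5 residual degrees of freedom) and Benjamini-Hochberg adjustment within each comparison at 0.1. Alternatives were DESeq2 1.42.0, its size factors, 2 other filters, a threshold of 0.05, fits of 2 groups, a block on the replicate number, leaving out each sample, and a GC correction (lowess, span 0.3, on the last 300 bases of canonical transcripts) added after seeing the data. Positions came from GENCODE release 44, copies of transcript ends from blastn 2.17.0+, and promoter windows from RefSeq. The script was tested on simulated counts.

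All 10 genes are named, with SDHA, SDHB and, of each further list, genes past the threshold in at least 1 comparison and up to 3 more with the largest change in SDHB knockout against parental cells at 20 CPM or more. The genes and lists were chosen with earlier results of these data known. A log2 fold change carries its standard error. Reads on genes (773042 to 1427141 per sample) limit precision for genes with few counts.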

Additional observations from a re-analysis of the deposited data

How the results depend on the processing

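The number of the 10 genes called was 0 in every setting for SDHA knockdown against SDHB knockout cells and against parental cells. In SDHB knockout against parental cells it was 0, and 1 (HSPE1) without a filter on low counts and when only the 2 groups were fitted, with 0 to 1 when a sample was left out. The medians of the tested genes stayed within the spread between samples.

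Counts of calls over all genes moved more. For SDHB knockout against parental cells (418), there were 773 with only the 2 groups, 171 at 0.05, and 0 to 833 with a sample left out. For SDHA knockdown against SDHB knockout cells (114), there were 64 with only the 2 groups, 64 at 0.05, and 39 to 362 with a sample left out. For SDHA knockdown against parental cells (69), there were 152 without a filter, 7 with only the 2 groups, 13 at 0.05, and 4 to 172 with a sample left out. Calls among the 64 genes of the mitochondrial and stress regulator lists were 3 in the first comparison (5 with only the 2 groups, 0 to 6 with a sample left out). In the second there was 1 (0 with only the 2 groups and at 0.05, 0 to 4 with a sample left out). Over all genes, the lowest of these counts came without parental replicate 1 (comparisons with parental cells) or SDHB knockout replicate 1 (the other), and the highest without SDHA knockdown replicate 2 in all 3.

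Samples with the same replicate number did not deviate together (7 pairs, r from -0.27 to 0.093). With the number as a replicate block, calls were 199, 59 and 12 over all genes and 1, 0 and 0 among the genes of the mitochondrial and stress regulator lists, in the 3 comparisons in this order. HSPE1 was at an edgeR adjusted p of 0.17 in the first comparison. TRAP1 (-0.051) in the first and HSP90B1 (-0.035) in the second comparison turned sign. The GC correction also turned TRAP1 (-0.077) and HSP90B1 (-0.037).

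Small differences turned sign with a sample left out. In SDHB knockout against parental cells TRAP1 ran from -0.091 to 0.215, and over all alternatives CEBPB ran from -0.093 to 0.518 and EIF2AK1 from -0.445 to 0.138. In SDHA knockdown against SDHB knockout cells the ranges were -0.078 to 0.283 for HSPD1, -0.052 to 0.444 for HSPE1, -0.041 to 0.487 for HSPA9, -0.00 to 0.31 for TRAP1, -0.119 to 0.013 for CLPP, -0.703 to 0.023 for HTRA2, -0.75 to 0.084 for YME1L1, -0.034 to 0.448 for HSPA4, -0.14 to 0.30 for HSP90B1 and -0.32 to 0.12 for HYOU1. In SDHA knockdown against parental cells they were -0.168 to 0.047 for LONP1, -0.27 to 0.80 for HTRA2 and -0.232 to 0.086 for ATF4. The cause was not tested. With 2 parental samples and 6 to 109 counts for HSPE1, HSPD1, HSPA9, HTRA2 and YME1L1, a difference smaller than the printed intervals was not detectable at this depth.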
